A study of Mus musculus with 7 samples.

Results

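Dusp1, Dusp2, Dusp5, Dusp6, Spry1, Spry2, Spred1 and Spred2 encode negative feedback regulators of MAP kinase signalling. They were taken by gene symbol as 8 of the 19649 genes in a table of normalized read counts from mouse long-term haematopoietic stem cells. The mice, described as CALR knockin crossed with MxCre expressing mice, were of 2 genotypes. Wild-type libraries came from Calr +/+ (Calr wildtype) MxCre mice (n = 4), and mutant libraries (n = 3) from mice with the genotype label Calr fl/fl (Calr del52/del52) MxCre. The del52 allele is a 52-base deletion in the last exon of calreticulin, an endoplasmic reticulum chaperone. Both genotypes carried MxCre, a Cre recombinase driven by the interferon-inducible Mx1 promoter, and both received pI:pC, a double-stranded RNA mimic that raises interferon. The Mx1 promoter is not restricted to stem cells. Stem cells (lineage negative, Kit and Sca-1 positive, CD48 negative, CD150 positive) were sorted on day 14 after the start of induction, and no drug was given. The labels do not say that libraries came from separate mice, and p-values therefore reflect the spread among the libraries alone, which may be technical in part.

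Growth factor and cytokine receptors switch on RAS, which activates the kinases RAF, MEK and ERK in turn, and active ERK induces the genes that shut the pathway down again. Dual-specificity phosphatases (DUSPs) remove the activating phosphates from MAP kinases, Sprouty proteins block the passage of the signal from receptors to RAS and RAF, and Spred proteins bring neurofibromin (Nf1), which inactivates RAS, to the membrane. In blood stem cells, ERK signalling is known to rise on exit from quiescence, and the mRNAs of several of these genes are short-lived and respond quickly to stimulation.

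Library depth ran from 21325340 to 28710304 recovered reads, and 16047 genes, all 8 members among them, reached a normalized count of 10 or more in 3 or more libraries and were tested. The 4 wild-type libraries fell into pairs. Wild-type 3 and 4 stood apart from the other libraries, with levels that rose by 0.24 on the log2 scale for each doubling of exonic length, against -0.17 to 0.01 in the others. Mitochondrial genes took 0.363% and 0.412% of their reads, against 0.681% to 1.17% elsewhere. Sample titles number wild-type 3 and 4 and mutant 1 and 2 in 1 close series, and the labels do not say what these numbers mark. All 10 stem cell markers on a fixed list had reads in every library. Neutrophil and monocyte genes that the sort should remove were also present, 15 of 15 in the table, with a summed normalized count of 59577 to 103766 in wild-type and 23120 to 69527 in mutant libraries. Their median log2 difference was -2.09 against all 4 wild-type libraries (12 of 15 below 0, 0 called by limma). It was -1.79 against wild-type 1 and 2 (0 called) and -2.27 against wild-type 3 and 4. In that last comparison 9 were called lower and 1 higher, beside 24.7% and 22.1% of all tested genes. The part of the neutrophil and monocyte genes in the results on the feedback genes was not tested. Erythroid genes, 10 of 10 in the table, summed to 34723 to 55485 in wild-type and 55869 to 69854 in mutant libraries, most of it Car2. Most genes of this list went the other way, with a median log2 difference of -0.49 against all 4 wild-type libraries (7 of 10 below 0). The erythroid median was -0.81 against wild-type 1 and 2 (8 of 10 below 0) and -0.26 against wild-type 3 and 4 (6 of 10). Of 8 lymphoid genes, Cd3e, Cd3g and Ms4a1 were not analysed here, Cd3d was too low to test and 4 were tested. Against wild-type 3 and 4, Cd79b and Nkg7 were called higher and Cd79a lower, beside 22.1% and 24.7% of tested genes. All 8 megakaryocyte and platelet genes were below 0 against wild-type 1 and 2 (median -0.51, 0 called). Their median was -0.11 against all 4 (5 of 8 below 0). It was 0.45 against wild-type 3 and 4, with 3 called higher and 2 lower. Calr, the mutated gene, had a mean of 16783 ± 1259 (SD, n = 4) in wild-type and 15093 ± 767 (SD, n = 3) in mutant libraries. That log2 difference of -0.15 had an exact two-sided permutation p of 0.0857 (35 arrangements, smallest possible p 0.0286). The counts do not show the deletion itself, so this level does not check the genotype. In such bulk samples fewer cells of a type and less RNA per cell cannot be told apart, and the unstranded libraries do not separate a gene from an antisense partner. Some exons of Dusp1, Dusp5 and Spry1 overlap exons of Ergic1, AC137853.2 and Gm42922 on the opposite strand.

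The log2 difference between the wild-type pairs was larger than that between mutant and all wild-type libraries for 7 of the 8 genes. In wild-type 3 and 4, Dusp1, Dusp2, Dusp5, Dusp6, Spry1 and Spred1 were 2.56-fold to 9.06-fold higher than in wild-type 1 and 2. Mutant libraries lay between the pairs for Dusp1, Dusp2, Dusp5, Dusp6 and Spry1, and around or below the lower pair for Spred1 and Spred2. The plot of normalized counts by library shows this arrangement, and each gene is described in turn, phosphatases first.

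**Figure D1:**
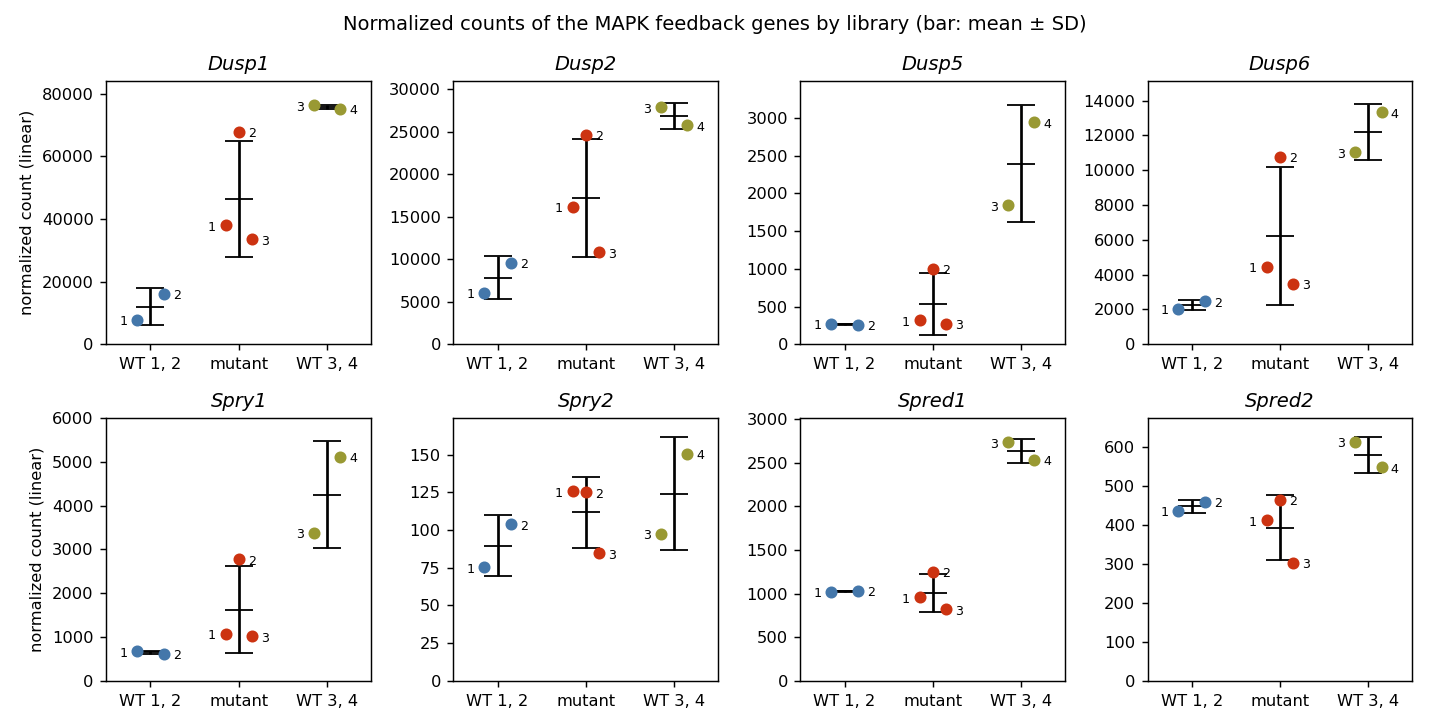
Normalized count (linear axis from 0) of each of the 8 genes in wild-type 1 and 2 (blue), mutant 1 to 3 (red) and wild-type 3 and 4 (olive), with 1 numbered point per library and bars for the mean and SD of each set. Mutant 2 is the highest mutant library except for Spry2, and the wild-type pairs overlap only for Spry2.

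Dusp1 (ENSMUSG00000024190.7, chromosome 17, 26505590 to 26562128, minus strand, GRCm38) encodes a nuclear phosphatase of p38, JNK and ERK and is an immediate early gene. Its promoter is shown because this gene gave the largest difference against wild-type 1 and 2. The stretch is chr17:26508573-26508652 on the minus strand of GRCm38.p6 (RefSeq), bases -180 to -101 from the start site, and capitals mark the cyclic AMP response element TGACGTCA, a binding sequence of CREB family factors.
Dusp1: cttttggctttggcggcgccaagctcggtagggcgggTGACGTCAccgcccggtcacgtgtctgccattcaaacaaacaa
The normalized count of Dusp1 was 7721 and 16106 for wild-type 1 and 2, 76309 and 75278 for wild-type 3 and 4, and 37955, 67752 and 33505 for mutant 1, 2 and 3. Every mutant library was above the first pair and below the second, and wild-type 2 had more than wild-type 1 by 2.09-fold. The mutant mean was 3.90-fold that of wild-type 1 and 2, a log2 difference of 1.99 with SE 0.34 and a limma adjusted p of 0.0470. The log2 difference from wild-type 3 and 4 was -0.78 (SE 0.34, limma adjusted p 0.0808). The higher level against wild-type 1 and 2 did not pass in 9 of 16 alternative settings, with an adjusted p of 0.0529 under TMM scaling and 0.0801 in edgeR. These settings included leaving out any 1 of wild-type 1, 2, 3 and 4 or mutant 1 (limma adjusted p 0.456 without wild-type 1 and 0.0529 to 0.0818 otherwise).

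Dusp2 (ENSMUSG00000027368.6, chromosome 2, 127336159 to 127338376, plus strand) encodes another inducible nuclear phosphatase, abundant in blood cells. Its normalized count was 6026 and 9583 for wild-type 1 and 2, 27879 and 25739 for wild-type 3 and 4, and 16163, 24596 and 10809 for mutant 1, 2 and 3. As for Dusp1, the mutant libraries lay between the pairs without overlap, mutant 2 close to the upper pair and mutant 3 close to wild-type 2. Neither difference passed the test: the log2 value was 1.10 against wild-type 1 and 2 (SE 0.30, limma adjusted p 0.183) and -0.72 against wild-type 3 and 4 (SE 0.30, limma adjusted p 0.0749). The first did pass in DESeq2 (1.13, adjusted p 0.00873) and without mutant 3 (1.39, limma adjusted p 0.0221), and the second without mutant 2.

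Dusp5 (ENSMUSG00000034765.6, chromosome 19, 53529109 to 53542431, plus strand) encodes a nuclear phosphatase with a strong preference for ERK. It differed most between the wild-type pairs, so its promoter is shown. The stretch is chr19:53529025-53529104 on the plus strand of GRCm38.p6 (RefSeq), bases -120 to -41 from the start site. Capitals mark a pair of adjacent CArG boxes at -82 to -73 and -72 to -63, the motif bound by serum response factor, a factor that ERK activates through its ETS partners.
Dusp5: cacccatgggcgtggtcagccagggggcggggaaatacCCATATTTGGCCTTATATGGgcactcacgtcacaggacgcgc
Dusp5 had a normalized count of 271 and 258 for wild-type 1 and 2, 1843 and 2944 for wild-type 3 and 4, and 317, 1003 and 273 for mutant 1, 2 and 3. Mutant 1 and 3 were barely above the lower pair, mutant 2 stood apart from them at 3.40-fold their mean, and no mutant library reached wild-type 3. The mutant mean was 0.222-fold that of wild-type 3 and 4, a fall of 2.39 on the log2 scale (SE 0.46, limma adjusted p 0.00246). A log2 difference of 0.74 from wild-type 1 and 2 (SE 0.46) did not pass (limma adjusted p 0.578).

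Dusp6 (ENSMUSG00000019960.8, chromosome 10, 99263231 to 99267489, plus strand) encodes the cytoplasmic phosphatase specific for ERK, and its mRNA is widely used as a readout of ERK activity. The normalized count was 2029 and 2470 for wild-type 1 and 2, 11037 and 13333 for wild-type 3 and 4, and 4450, 10785 and 3463 for mutant 1, 2 and 3. Mutant 2 came close to wild-type 3, whereas mutant 1 and 3 were nearer the lower pair, and neither pair overlapped the mutant libraries. Dusp6 fell by 1.14 on the log2 scale against wild-type 3 and 4 (SE 0.38, limma adjusted p 0.0300), a call that edgeR and DESeq2 did not make (adjusted p 0.0586 and 0.183). It was lost when any 1 library other than mutant 2 was left out, with limma adjusted p from 0.0515 to 0.155. Against wild-type 1 and 2 the log2 difference was 1.30 (SE 0.38, limma adjusted p 0.203).

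Of the Sprouty genes, Spry1 (ENSMUSG00000037211.12, chromosome 3, 37639947 to 37644598, plus strand) followed the inducible phosphatases and Spry2 did not. Spry1 had a normalized count of 674 and 625 for wild-type 1 and 2, 3383 and 5118 for wild-type 3 and 4, and 1080, 2772 and 1015 for mutant 1, 2 and 3. All mutant libraries were above the lower pair and below the upper pair, and mutant 2 was 2.65-fold the mean of mutant 1 and 3. Spry1 fell by 1.52 on the log2 scale against wild-type 3 and 4 (SE 0.37, limma adjusted p 0.00759), and by 1.22 without wild-type 4, where it did not pass (limma adjusted p 0.0797). Against wild-type 1 and 2 the value was 1.16 (SE 0.37, limma adjusted p 0.256).

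Spry2 (ENSMUSG00000022114.5, chromosome 14, 105891947 to 105896819, minus strand) was the least abundant of the 8 genes. Its normalized count was 75.4 and 104 for wild-type 1 and 2, 97.6 and 151 for wild-type 3 and 4, and 126, 125 and 84.6 for mutant 1, 2 and 3. All sets of libraries overlapped. The log2 differences were 0.31 against wild-type 1 and 2 and -0.14 against wild-type 3 and 4 (SE 0.31 for both), and neither passed (limma adjusted p 0.757 and 0.736).

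Spred1 (ENSMUSG00000027351.14, chromosome 2, 117121374 to 117182279, plus strand) had the smallest adjusted p of the 8 genes against wild-type 3 and 4 and did not differ from wild-type 1 and 2 beyond its error. Its normalized count was 1024 and 1031 for wild-type 1 and 2, 2733 and 2535 for wild-type 3 and 4, and 960, 1247 and 820 for mutant 1, 2 and 3. The mutant libraries lay on both sides of the lower pair and well below the upper pair. Spred1 fell by 1.40 on the log2 scale against wild-type 3 and 4 (SE 0.18, limma adjusted p 0.000332). Its log2 difference from wild-type 1 and 2 was -0.05 (SE 0.18, limma adjusted p 0.944).

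Spred2 (ENSMUSG00000045671.17, chromosome 11, 19924375 to 20024026, plus strand) varied least in fold between the wild-type pairs. The normalized count was 436 and 458 for wild-type 1 and 2, 612 and 547 for wild-type 3 and 4, and 412, 464 and 302 for mutant 1, 2 and 3. Mutant 3 was the lowest of all 7 libraries, and mutant 2 was just above the lower pair. Spred2 fell by 0.58 on the log2 scale against wild-type 3 and 4 (SE 0.21, limma adjusted p 0.0396), and this too was lost without any 1 library other than mutant 2 (limma adjusted p 0.0648 to 0.212). Against wild-type 1 and 2 the value was -0.21 (SE 0.21, limma adjusted p 0.752).

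Set against all 4 wild-type libraries together, none of the 8 genes passed the test. The log2 differences ran from -0.82 for Dusp5 (SE 0.94, limma adjusted p 0.660) to 0.60 for Dusp1 (SE 0.80, limma adjusted p 0.700). The median over the 8 genes was -0.05. Spred1 at -0.73 (SE 0.40) and Spred2 at -0.39 (SE 0.23) had the smallest limma adjusted p, 0.538 each. For Dusp1, mutant libraries averaged 46404 ± 18622 (SD, n = 3) normalized counts and wild-type libraries 43854 ± 37042 (SD, n = 4). Dusp6 averaged 6233 ± 3973 in mutant and 7217 ± 5815 in wild-type libraries. The wild-type SD was thus nearly as large as the mean for Dusp1, Dusp5, Dusp6 and Spry1. It was smaller for Spred1, at 1831 ± 931 in wild-type and 1009 ± 218 in mutant libraries, and for Spred2, at 513 ± 81.6 and 393 ± 82.8. With the length slope of each library as a covariate, limma called Dusp1 (1.85), Dusp2 (1.06), Dusp6 (1.27) and Spry1 (1.10) higher in mutant libraries, with adjusted p from 0.00611 to 0.0292, against 0.617% of tested genes. With the title series as a covariate it called Spred1 lower, at -0.89 (limma adjusted p 0.0260), against 12.5% of tested genes called lower, and Dusp2 and Dusp6 turned negative. Without covariates, limma called 0 of the 16047 tested genes higher (0%) and 0 lower (0%). At an unadjusted p under 0.05 limma had 1365 genes (8.51%) and 0 of the 8. Counts recovered from the table gave 0 genes in edgeR and 107 in DESeq2, and 0 of the 8 in either. No gene of the 8 had mutant libraries wholly above the wild-type ones, against 5.23% of tested genes, or wholly below them, against 4.34%.

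Against each wild-type pair the counts of genes that passed differed. The 2 comparisons use the same 3 mutant libraries. Against wild-type 1 and 2, limma called 1 of the 8 genes higher, Dusp1, against 0.255% of tested genes (41). It called 0 of the 8 lower, against 0.0561% (9 genes). Mutant libraries lay wholly above wild-type 1 and 2 for 5 of the 8 genes (Dusp1, Dusp2, Dusp5, Dusp6 and Spry1), against 13.9% of tested genes, and wholly below for 0, against 12.4%. Against wild-type 3 and 4, limma called 5 of the 8 lower (Dusp5, Dusp6, Spry1, Spred1 and Spred2), against 24.7% of tested genes, and 0 higher, against 22.1%. Without wild-type 4 the 5 became 2, Dusp5 and Spred1, and without wild-type 1, 2 or 3 or mutant 1 or 3 they became 3, Dusp5, Spry1 and Spred1. The mutant libraries lay wholly below wild-type 3 and 4 for 7 of the 8, Spry2 being the exception, against 33.8% of tested genes, and wholly above for 0, against 33.8%. The median log2 difference of the 8 genes was 0.92 against wild-type 1 and 2 and -0.96 against wild-type 3 and 4, with medians over all tested genes of 6.2e-05 and -0.0044.

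**Figure D2:**
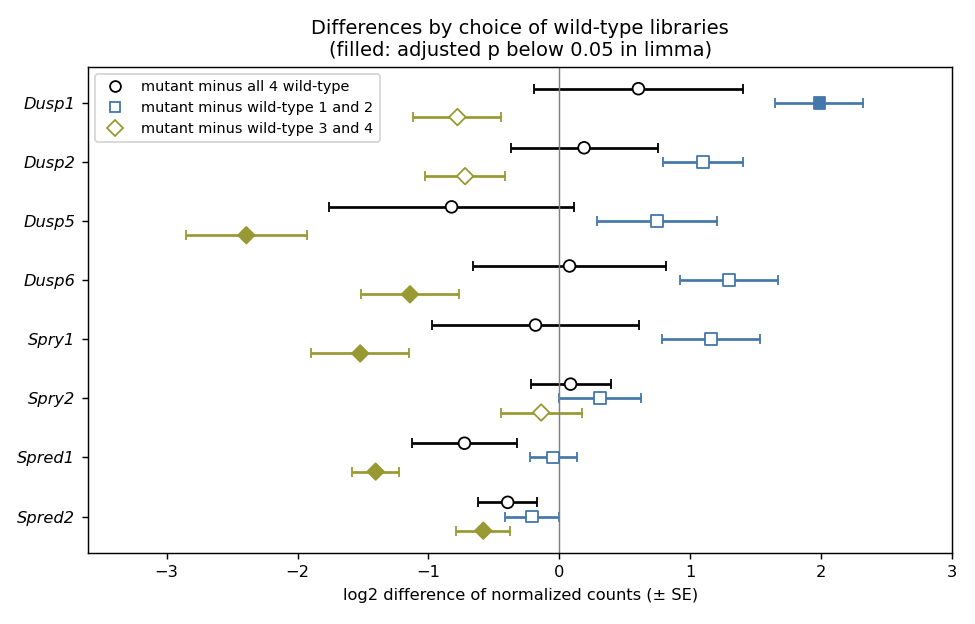
Log2 difference of the mutant mean from all 4 wild-type libraries, from wild-type 1 and 2 and from wild-type 3 and 4 for each of the 8 genes, with bars of 1 limma SE and filled points where the limma adjusted p was under 0.05. Dusp1 is filled against wild-type 1 and 2, and Dusp5, Dusp6, Spry1, Spred1 and Spred2 are filled against wild-type 3 and 4.

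The pairs of wild-type libraries, of 1 genotype by their labels, were also compared with each other. Limma called 6 of the 8 genes higher in wild-type 3 and 4 than in wild-type 1 and 2, against 24.1% of tested genes, and 0 lower, against 20.9%. Dusp5 rose by 3.14 on the log2 scale (SE 0.50, limma adjusted p 0.00115). Dusp1 rose by 2.76 (SE 0.37, limma adjusted p 0.000453) and Spry1 by 2.68 (SE 0.41, limma adjusted p 0.000885). Dusp6 rose by 2.44, Dusp2 by 1.82 and Spred1 by 1.36, with limma adjusted p of 0.00143, 0.00202 and 0.000692. Spry2 at 0.45 and Spred2 at 0.37 did not pass (limma adjusted p 0.309 and 0.204). The pairs did not overlap for 7 of the 8 genes, all but Spry2, with wild-type 3 and 4 higher each time, against 39.2% of tested genes higher without overlap and 38% lower. On the log2 path from wild-type 1 and 2 to wild-type 3 and 4, the mutant mean stood at 71.8% for Dusp1, 60.4% for Dusp2, 53.2% for Dusp6, 43.2% for Spry1 and 23.7% for Dusp5. It stood at -3.45% for Spred1. Spry2 at 68.9% and Spred2 at -56.1% were not called between the pairs, so their paths were short. Thus, of the 6 genes called between the pairs, the phosphatases and Spry1 lay part of the way along, and Spred1 at the start.

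Mutant 2 was the highest mutant library for 7 of the 8 genes. It also had a length slope of 0.01, against -0.12 and -0.17 for mutant 1 and 3. Mitochondrial genes took 0.683% of its reads, against 1.11% and 1.17%, and the part of these library traits was not tested. Mutant 2 exceeded the mean of mutant 1 and 3 by 3.40-fold for Dusp5, 2.73-fold for Dusp6, 2.65-fold for Spry1, 1.90-fold for Dusp1 and 1.82-fold for Dusp2. The fold was 1.40 for Spred1, 1.30 for Spred2 and 1.19 for Spry2. Without mutant 2, limma called 7 of the 8 genes lower than in wild-type 3 and 4, Dusp1 at -1.09 and Dusp2 at -1.02 included, and called Dusp1, Dusp6 and Spry1 higher than in wild-type 1 and 2. In the same fits 29.6% of tested genes were called lower and 2.22% higher, respectively. With mutant 1 and 2 alone, whose titles belong to the number series of wild-type 3 and 4, Dusp5 fell by 2.04 (limma adjusted p 0.00888), Spry1 by 1.27 (limma adjusted p 0.0295) and Spred1 by 1.27 (limma adjusted p 0.00112). Dusp6 at -0.81 and Spred2 at -0.40 then missed the threshold (limma adjusted p 0.0937 and 0.122), and 21.1% of tested genes were called lower. Mutant 3, outside that series, was compared alone with wild-type 1 and 2 and was higher for Dusp1 by 1.59, Dusp6 by 0.63 and Spry1 by 0.64 on the log2 scale. Those 3 calls, beside 3.45% of tested genes called higher, take the spread of the single mutant library from wild-type 1 and 2.

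**Figure D3:**
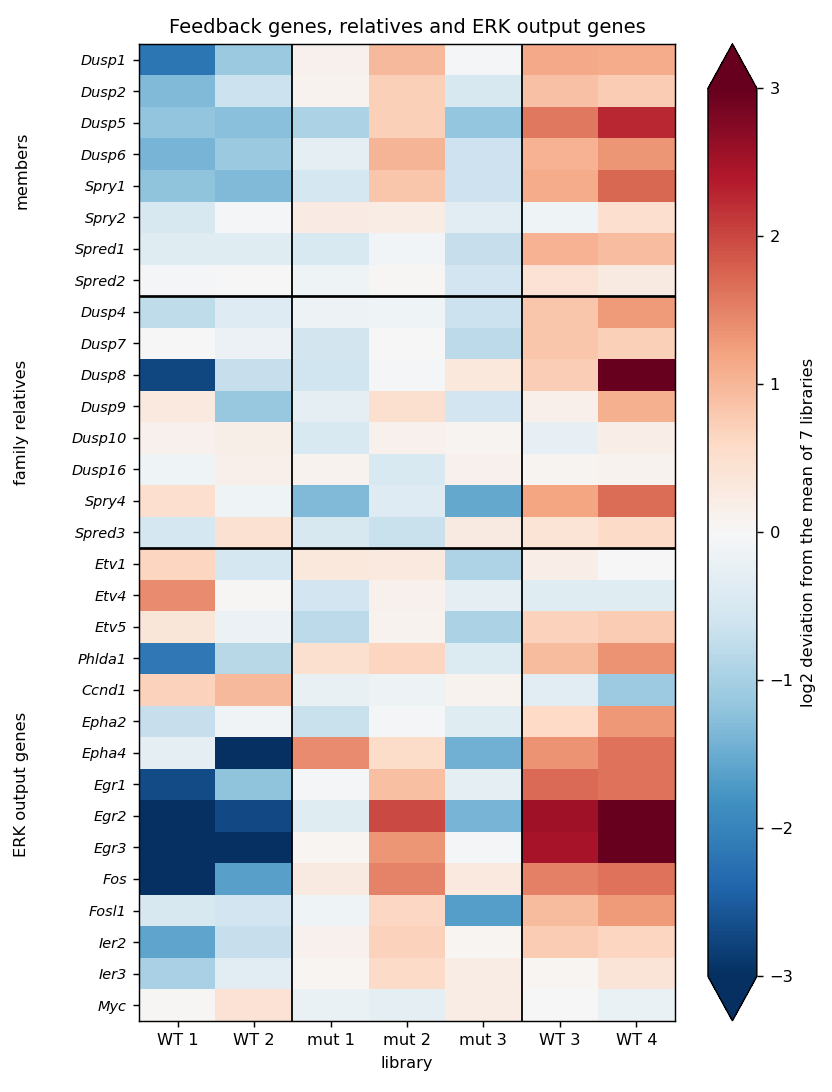
Log2 deviation of each library from that gene's mean over the 7 libraries, in a colour scale capped at 3 log2 units, with the 8 genes, family relatives and ERK output genes in rows and libraries in columns. Wild-type 3 and 4 are above the mean for 7 of the 8 genes, and Spred1 and Spred2 are near or below it in all 3 mutant libraries.

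Scaled by exonic length and depth, levels of the 8 genes could be ordered. As reads per kilobase of exon, scaled to library depth (RPKM), the median over the 7 libraries was 473 for Dusp1, 333 for Dusp2, 58.6 for Dusp6, 15.3 for Spry1, 6.36 for Spred1, 5.29 for Dusp5, 4.15 for Spred2 and 2.08 for Spry2. Ranges over libraries overlapped between neighbours in this order. Dusp1 ran from 94.6 to 962 and Dusp2 from 122 to 581, and in wild-type 1 Dusp2 was the higher. Dusp6 ran from 26.3 to 179, and Dusp5 from 4.29 to 50.2, past the top of Spred1 (4.69 to 16.8) and of Spred2 (2.54 to 5.53). Dusp1 and Dusp2 thus had the highest medians of the 8 genes by this measure.

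Transcript values, in FPKM (fragments scaled for transcript length and depth), were deposited for 7 of the 8 genes, and Spry2 transcripts were not analysed here. Dusp1-202, which encodes the phosphatase, had an FPKM of 100 and 205 for wild-type 1 and 2, 1245 and 1350 for wild-type 3 and 4, and 571, 1133 and 517 for mutant 1, 2 and 3. This is the order of the sets seen for the gene. Transcripts annotated as retained introns took 33.2% and 37.5% of the Dusp1 FPKM in wild-type 1 and 2, 17.7% and 8.91% for wild-type 3 and 4, and 24.6%, 12.3% and 23.2% for mutant 1, 2 and 3. The share was lowest in wild-type 4 and mutant 2 and highest in the libraries with least Dusp1, and no test was made of it. For Dusp2 the share was 20.2%, 16.3%, 15.6% and 9.56% for wild-type 1 to 4 and 24.8%, 12.7% and 19.5% for mutant 1 to 3. Wild-type 4 and mutant 2 were again the lowest. Dusp6-201 had an FPKM of 27.2, 29.8, 130 and 151 for wild-type 1 to 4 and 54.6, 119 and 43.3 for mutant 1 to 3, and Dusp6-204 had 0, 4.11, 19.4 and 36.9, and 4.82, 27.4 and 4.43. Both Dusp6 transcripts were thus highest in wild-type 3, wild-type 4 and mutant 2. Spry1-201 had 7.84, 5.26, 30.3 and 62.9 for wild-type 1 to 4 and 12.0, 30.6 and 10.4 for mutant 1 to 3. Spry1-202 had 2.65, 4.22, 18.9 and 11.6, and 4.66, 6.50 and 5.07. The excess of mutant 2 over the other mutant libraries was larger in Spry1-201 than in Spry1-202.

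**Figure D4:**
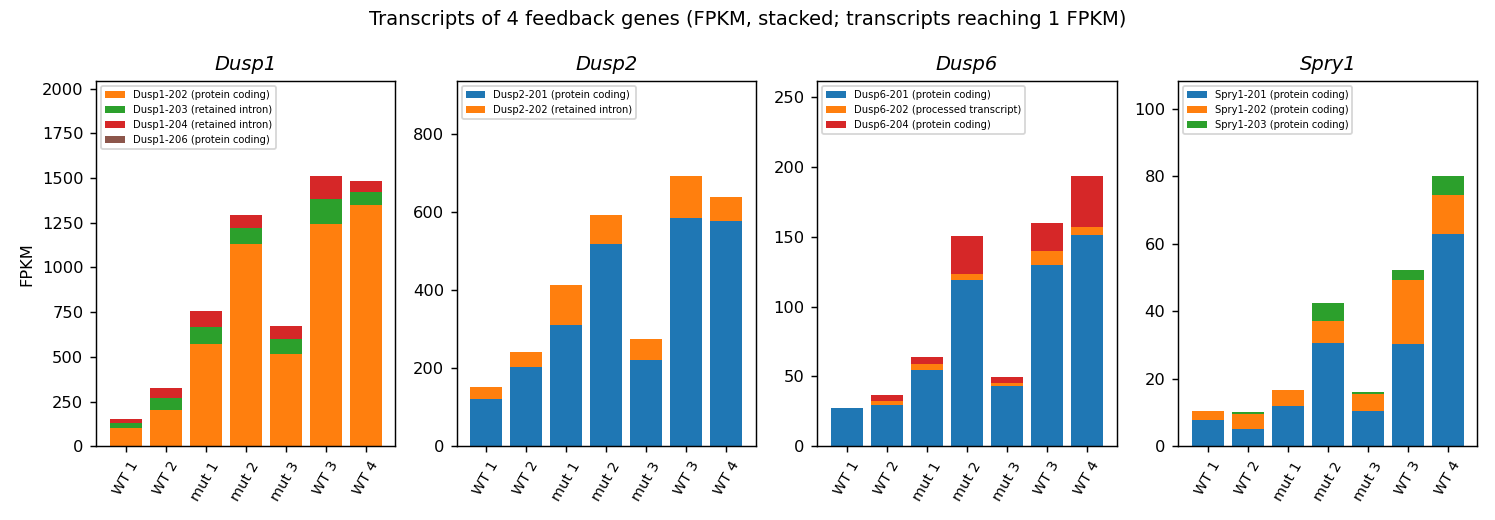
FPKM of the transcripts of Dusp1, Dusp2, Dusp6 and Spry1 that reach 1 FPKM, stacked in 1 bar per library (linear axis from 0), with the annotated transcript type in each legend. Dusp1-202 is 100 and 205 for wild-type 1 and 2 and 1245 and 1350 for wild-type 3 and 4, and the retained-intron transcripts are the smallest share of Dusp1 in wild-type 4 (8.91%).

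Motifs were searched on both strands of the RefSeq promoters (250 bases before to 50 after each start, 32851 promoters, GRCm38.p6), and each of the 8 genes had 1 promoter there. The cyclic AMP response element TGACGTCA was found in 1 of the 8, Dusp1, and in 1.79% of all promoters. A CArG box was in 1 of the 8, Dusp5, and in 1.63% of all promoters, and at least 2 boxes, as in Dusp5, in 0.0183%. The ETS core CCGGAA was in 1 of the 8, Spry2, and in 14.9% of all promoters. The AP-1 motif (TGAGTCA or TGACTCA) was in 0 of the 8 windows and in 5.20% of all promoters. A match describes the letters of this window only, and the genes with a match were not tested as a group.

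Other members of the same families were taken from a fixed list of 9 genes. Spry3 was not analysed here, and Dusp8 (0 to 51.6 normalized counts) was too low to test. Of the 7 tested, limma called 3 lower against wild-type 3 and 4 (Dusp4, Dusp7 and Spry4), 0 against wild-type 1 and 2 and 0 against all 4. This count and those of the lists that follow stand beside 24.7% of tested genes called lower and 22.1% higher against wild-type 3 and 4. Calls between the wild-type pairs stand beside 24.1% of tested genes higher in wild-type 3 and 4 and 20.9% lower. Spry4, a further Sprouty gene, had a normalized count of 42.6, 27.0, 69.2 and 97.3 for wild-type 1 to 4 and 11.2, 22.3 and 9.67 for mutant 1 to 3. It was below every wild-type library in all 3 mutant libraries, at low counts. Its log2 difference was -1.27 against wild-type 1 and 2 (limma adjusted p 0.317), -2.52 against wild-type 3 and 4 (limma adjusted p 0.00201) and -1.90 against all 4 (limma adjusted p 0.538). Dusp4, a nuclear phosphatase, had 216, 283, 655 and 890 for wild-type 1 to 4 and 332, 335 and 236 for mutant 1 to 3. Mutant 1 and 2 were above the lower pair and mutant 3 lay within it, a log2 difference of 0.26 (limma adjusted p 0.717). Dusp4 fell by 1.36 against wild-type 3 and 4 (limma adjusted p 0.00157). Dusp7, a cytoplasmic phosphatase of ERK, had 532, 472, 948 and 873, and 363, 540 and 309, and fell by 1.21 (limma adjusted p 0.00227). For Dusp9, Dusp10, Dusp16 and Spred3 the log2 differences from all 4 wild-type libraries were -0.21, -0.14, -0.13 and -0.53, and none passed in any comparison. The median of the 7 genes was -0.53 against all 4, -0.24 against wild-type 1 and 2 and -0.79 against wild-type 3 and 4. Between the wild-type pairs, 2 of the 7 (Dusp4 and Dusp7) were called higher in wild-type 3 and 4 and 0 lower (median 0.86).

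Upstream of the feedback genes, most receptors and adaptors were lower in mutant libraries than in wild-type 3 and 4. Of 18 tested, limma called 15 lower and 1 higher (Ptpn11) against wild-type 3 and 4, and 0 against wild-type 1 and 2 or all 4. Their medians were -1.36, 0.08 and -0.57. The wild-type pairs differed in the same list, with 15 of the 18 called higher in wild-type 3 and 4 than in wild-type 1 and 2. Ptpn11 was called lower, and the median was 1.28. Kit, the stem cell factor receptor and a sort marker, had a normalized count of 4150, 4068, 26511 and 25305 for wild-type 1 to 4 and 4736, 6677 and 2976 for mutant 1 to 3. As for Spred1, the mutant libraries lay around the lower pair, and Kit fell by 2.51 against wild-type 3 and 4 (limma adjusted p 0.000115). Among the adaptors, the log2 difference from all 4 was -0.78 for Cbl, a ubiquitin ligase of receptors, -0.56 for the RAS exchange factor Sos1, -0.39 for Grb2, and 0.31 for the phosphatase Ptpn11, none past the threshold.

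Inside the cascade, 18 genes from RAS to the RSK kinases were tested. Limma called 3 higher (Hras, Rras and Lamtor3) and 5 lower (Braf, Iqgap1, Rps6ka1 and Rps6ka2 among them) against wild-type 3 and 4, and 0 against wild-type 1 and 2 or all 4. Both shares were near those of all tested genes, 22.1% and 24.7%. The medians were -0.13, -0.04 and -0.07. Between the wild-type pairs, 6 were called higher in wild-type 3 and 4 and 4 lower (median 0.19). Against all 4, Braf was at -0.59, the scaffold Ksr1 at -0.54, the scaffold Lamtor3 at 0.44 and Rras at 0.43, and none passed. RAS inhibitors and Spred partners numbered 9 tested, of which Nf1, Rasa1, Rasa3, Rasal3 and Lztr1 were lower against wild-type 3 and 4 and 0 passed otherwise, with medians of -0.71, -0.06 against wild-type 1 and 2 and -0.28 against all 4. Nf1, the partner of Spred1 and Spred2, had a normalized count of 76.5, 83.1, 245 and 183 for wild-type 1 to 4 and 120, 108 and 94.2 for mutant 1 to 3. It fell by 0.98 against wild-type 3 and 4 (limma adjusted p 0.00969, and 0.119 without wild-type 3), and its mutant libraries were all above the lower pair. Against all 4, Rasal3 was at -0.86, Lztr1 at -0.39 and Rasa2 at -0.20. Between the wild-type pairs, 6 of these 9 inhibitors and partners were called higher in wild-type 3 and 4 and 0 lower (median 0.74).

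In the JNK and p38 cascade, which Dusp1 and Dusp2 also act on, 8 of 15 tested genes were lower and 0 higher against wild-type 3 and 4, and 0 passed against wild-type 1 and 2 or all 4. The medians were -0.45, -0.03 and -0.32. Between the wild-type pairs, 8 were called higher in wild-type 3 and 4 and 1 lower (median 0.52). The kinases Map3k5 (-1.04), Mapk11 (-0.68), Mapkapk2 (-0.59) and Mapk12 (-0.45) had the largest log2 differences from all 4 with 1 sign against both pairs, and none passed.

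Of 15 tested genes known to be induced by ERK, limma called 2 higher against wild-type 1 and 2 (Egr3 and Fos, against 0.255% of tested genes) and 0 lower, 5 lower against wild-type 3 and 4 (Etv5, Egr1, Egr2, Egr3 and Fosl1, against 24.7% of tested genes) and 0 higher, and 0 against all 4. The medians were 0.94, -0.91 and 0.12. Between the wild-type pairs, 8 were called higher in wild-type 3 and 4 and 1 lower (median 1.64). Etv5, an ETS factor often induced together with Dusp6 and Spry4, had a normalized count of 1218, 831, 1527 and 1594 for wild-type 1 to 4 and 551, 1013 and 489 for mutant 1 to 3. Mutant 1 and 3 were below every wild-type library and mutant 2 was above wild-type 2. Etv5 fell by 1.26 against wild-type 3 and 4 (limma adjusted p 0.00534) and was at -0.63 against wild-type 1 and 2 (limma adjusted p 0.426), where Dusp6 was at 1.30. Without mutant 2 that Etv5 value was -0.95 (limma adjusted p 0.0129). Against all 4, Etv1 was at -0.18 and the immediate early gene Ier3 at 0.50.

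A list of 19 genes known to rise during cell handling and after stimulation, immediate early and heat shock genes, moved with Dusp1 and Dusp2. Limma called all 19 higher in wild-type 3 and 4 than in wild-type 1 and 2, against 24.1% of tested genes. The median log2 difference was 3.62. Against wild-type 1 and 2, mutant libraries had 3 called higher (Fos, Klf2 and Klf4), against 0.255% of tested genes. They had 0 called lower, against 0.0561%, and a median of 2.22. Against wild-type 3 and 4, 9 were called lower and 0 higher, with a median of -1.41, and against all 4, 0 were called and the median was 0.46. The summed normalized count of the list was 53493 and 133608 for wild-type 1 and 2, 784866 and 766135 for wild-type 3 and 4, and 320768, 581405 and 252215 for mutant 1, 2 and 3. Ranked by this sum, the 7 libraries came in the same order as ranked by Dusp1 and by Dusp2, from wild-type 1 through wild-type 2, mutant 3, mutant 1, mutant 2 and wild-type 4 to wild-type 3. Fos alone, which encodes a subunit of AP-1, ran from 4007 for wild-type 1 to 147158 in wild-type 4, and was 56786, 134259 and 58041 for mutant 1, 2 and 3. Dusp1 is itself an immediate early gene, and the part of handling or stimulation in the levels of the 8 genes was not tested. Dusp6 departed from the order of libraries given above only in having wild-type 4 above wild-type 3. Dusp5, Spry1, Spry2, Spred1 and Spred2 departed from it further.

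**Figure D5:**
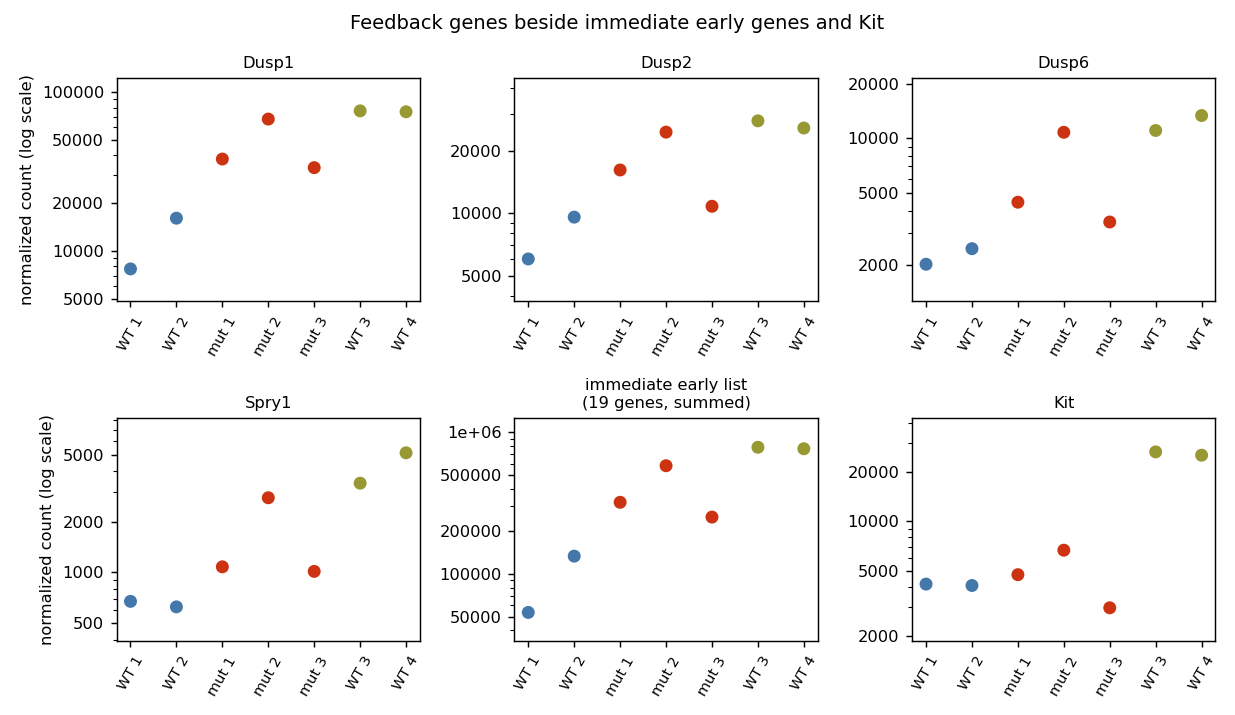
Normalized counts (log axis) of Dusp1, Dusp2, Dusp6 and Spry1, the sum over the 19 immediate early and heat shock genes, and Kit, in each library. The sum and Dusp1 rise from wild-type 1 through mutant 3, 1 and 2 to wild-type 3 and 4, while Kit in the mutant libraries (2976 to 6677) stays near wild-type 1 and 2.

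The genes whose log2 levels followed each member most closely over the 7 libraries were picked by Pearson r. These values describe 7 points that share the split of wild-type libraries, and many genes follow that split. Dusp1 was closest to Zfp36, which encodes an mRNA decay factor, and to Klf2 (r = 0.997 for both, n = 7). Dusp2 was closest to Junb (0.995, n = 7) and Hey1 (0.992, n = 7). Dusp6 was closest to the immediate early gene Egr2 (0.997, n = 7) and to Rbm12b2 (0.995, n = 7). Egr2 had a normalized count of 5.46, 7.27, 309 and 434 for wild-type 1 to 4 and 40.4, 210 and 19.3 for mutant 1 to 3. Dusp5 was closest to Irf2bpl (0.999, n = 7) and Gm7435 (0.996, n = 7), and Spry1 to Gm7232 (0.993, n = 7) and Zfp597 (0.991, n = 7). Spry2 was closest to the cholesterol transporter gene Abcg1 (0.987, n = 7) and Zfp942 (0.981, n = 7). Spred1 followed Chst15 and Pdzd8 (0.999 for both, n = 7), and Spred2 followed Dis3l and the stem cell homeobox gene Meis1 (0.995 for both, n = 7). Among the 8 genes, r was 0.98 for Dusp6 with Spry1 and for Dusp5 with Spry1, 0.97 for Dusp1 with Dusp2, and 0.87 for Spred1 with Spred2 (n = 7 each). It was 0.39 for Dusp1 with Spred2 (n = 7), the lowest of all pairs of the 8 genes, whereas Dusp5 with Spred1 had 0.93 (n = 7).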

How the data were processed

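RNA from sorted cells was sequenced in 4 wild-type and 3 mutant libraries. Per the submitters' processing notes, the genome build was GRCm38 and the tools were STAR 2.7.3a and HTSeq 0.6.1 besides FastQC 0.11.7, DESeq2 1.12.4 and Cufflinks 2.2.1, with options not given in the sources used here. Every gene in the table has reads in at least 4 libraries. The gene signal deposited by the authors is a normalized count. All values (100%) were whole multiples of 1 step per library within 0.01 reads, so reads were recovered, on which edgeR called 0 genes against all 4 wild-type libraries, 24 against wild-type 1 and 2 and 7445 against wild-type 3 and 4. The transcript table deposited by the authors gives FPKM. Positions and lengths came from GENCODE vM21 (GRCm38), which matched 19237 genes (97.9%).

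Normalized counts were transformed as log2(value + 1) and, for genes reaching 10 or more in 3 or more libraries, fitted by limma 3.58.1 (R 4.3.3) with its variance trend option. The pseudocount understates changes of low genes. One fit had 2 groups, and another had wild-type 1 and 2, wild-type 3 and 4 and mutant as 3 groups, a split that follows the titles. Tests were two-sided at a Benjamini-Hochberg adjusted p of 0.05 over all 16047 genes. edgeR 4.0.16 and DESeq2 1.42.0 ran on recovered reads. Scripts were tested on simulated data. Other alternatives were TMM scaling, FPKM, a length covariate, title series and leaving out libraries. Members and lists were chosen with earlier results of these data known. Named genes were the members, Calr, family relatives, Kit, up to 4 genes per list with the largest difference and 1 sign against both pairs, and the 2 genes most like each member. Nf1, Fos and the genes named in counts were added after their values were seen. Some genes the rule takes are not reported here.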

Additional observations from a re-analysis of the deposited data

Results flagged for a closer look

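Dusp10, a phosphatase of JNK and p38, had a normalized count of 158 in wild-type 3, set apart from 206, 213 and 216 in the other wild-type libraries by Dixon's criterion at the 95% level. Chance flags about 1 in 20 groups.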

How the results depend on the processing

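No paired analysis was possible because the labels give the genotypes no shared replicate numbers. Against all 4 wild-type libraries, where 0 genes passed, a covariate for the length slope gave 127 genes and 4 of the 8 feedback genes (members; Dusp1, Dusp2, Dusp6 and Spry1, all higher), a covariate for title series 3597 genes and 1 member (Spred1, lower), and DESeq2 107 genes. The length slope turned the direction of Dusp5 (0.69), Spry1 (1.10), Dusp4 (0.17), Dusp9 (0.35), Ptpn11 (-0.0047) and Kit (0.036). Dusp2 and Dusp6 turned to -0.052 and -0.23 with title series, -0.021 and -0.22 in edgeR, and -0.0016 and -0.20 in DESeq2. With 1 library left out at a time, log2 differences from all 4 crossed 0 for Dusp1 (-0.034 to 1.07, lowest without wild-type 1), Dusp2 (-0.23 to 0.51), Dusp6 (-0.41 to 0.53), Spry1 (-0.65 to 0.36), Spry2 (-0.066 to 0.27), Dusp9 (-0.62 to 0.12), Dusp10 (-0.25 to 0.043), Dusp16 (-0.22 to 0.066) and Etv1 (-0.39 to 0.23).

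Against wild-type 1 and 2, 50 genes and 1 member (Dusp1) passed. The counts were 6 genes and 0 members from FPKM, 24 and 0 in edgeR, 387 and 2 in DESeq2 and 1022 and 3 with mutant 3 only. TMM scaling gave 0 members, as did a fit of only the 5 libraries compared. Leaving out 1 library gave 0 to 595 genes and 0 to 3 members. The adjusted p of Dusp1 ran from 5.4e-07 to 0.456 over these settings, and Spry2 turned to -0.065 with mutant 3 only. Against wild-type 3 and 4, 7511 genes and 5 members passed, and 4348 to 8969 genes and 2 to 7 members passed without 1 library. Without 1 library, Spred1 ran from -0.21 to 0.092 against wild-type 1 and 2 and Spry2 from -0.45 to 0.17 against wild-type 3 and 4. The 2 members left without wild-type 4 were Dusp5 and Spred1, which passed under all 16 alternatives. The member count was 3 with only the 5 libraries compared and 3 with mutant 1 and 2 only, where Spry2 was at 0.048. Between the wild-type pairs 7215 genes passed, or 4342 to 8513 without 1 library, and the 6 members passed under all 14 alternatives. A wild-type library left alone in its pair was assumed to vary like the other groups. Calr in FPKM differed by -0.13 (exact permutation p 0.0286).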
